A study of Rattus norvegicus with 15 samples.

Results

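The mammary gland of rats that had carried capsules of an estrogen and a progestin weeks earlier was compared with the gland of rats that had carried empty capsules. The comparison rests on 10 of the 15 arrays of the series, chosen by their group labels alone: 5 hormone rats and 5 control rats, 1 array for each rat. All were female Lewis rats of an inbred strain, virgin and 3 months of age at the start, sampled from the left inguinal gland in metestrus. Hormone rats carried 2 silastic capsules under the skin of the back for 21 days, one filled with 100 µg of ethynyl estradiol in cellulose and the other with 30 mg of megestrol acetate. Control rats carried sham capsules of cellulose for the same 21 days. Both groups then rested for about 49 days, so the measurements were made after the hormones had been withdrawn and not during exposure. A further group of 5 rats had a full-term pregnancy of 21 to 23 days and then also rested for about 49 days. This group entered the fit for the estimate of spread, and its values are given where a gene that passed was set against it. Expression was measured on an Affymetrix rat array as RMA values, which are on a log2 scale, so that a difference of 1 is a doubling of the signal.

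Ethynyl estradiol is a synthetic agonist of the estrogen receptor and megestrol acetate a synthetic agonist of the progesterone receptor. In the rodent gland, estrogen acts on receptor-positive luminal cells and drives ducts to lengthen through paracrine growth factors such as amphiregulin, while progesterone drives side branching and alveolar budding through signals such as RANK ligand and Wnt4. The combination mimics part of the hormonal environment of pregnancy, and a past course of an estrogen with a progestin, like a past pregnancy, is known in rats to lower the later yield of carcinogen-induced mammary tumours.

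Present calls covered 65.3% to 68.4% of the probe sets on the 10 arrays, and the arrays' medians were 7.70 to 7.77. Of the genes that define the tissue, 19 of 20 milk and secretory and 18 of 19 luminal genes had at least 1 present call. So did 16 of 16 basal and 17 of 17 adipocyte genes. The share was 11855 of 14235 over all genes and 22 of 23 for skeletal muscle, so these counts do not identify the tissue. Neighbouring tissues were present in unequal amounts. For the lymph node list, 16 genes of lymphoid follicles and T cell areas, the level (the average over its genes of each log2 value minus that gene's mean on the 15 arrays) was −1.01 to −0.07 on the hormone arrays, against 1.61, 1.68 and 1.69 on control replicates 1, 4 and 5 and −1.01 and −0.91 on control replicates 2 and 6. The inguinal fat pad encloses a lymph node, and 3 of the 5 controls but none of the hormone arrays read at that high level. The skeletal muscle list stood at 3.58 on hormone replicate 4, against −0.98 to 0.52 on the other hormone arrays and −1.55 to 0.45 on the controls. Control replicate 5 also stood apart in clock genes: Bmal1, a core transcription factor of the circadian clock, read 7.23 to 7.60 on the hormone arrays, against 9.95 on that control and 7.50 to 7.98 on the others. Values without the 3 lymph node rich controls are given below beside results that they move. Over all 14235 genes the median difference without them was −0.0088, with 6750 genes positive, against 0.03 and 8229 with all controls. In a whole gland, fewer cells of a type and less RNA per cell cannot be told apart. With 5 rats a group, the number of arrays limits the precision.

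At a Benjamini-Hochberg adjusted p under 0.05 in limma, 9 of 31042 probe sets, or 0.029%, differed between hormone and control rats. Of these, 3 were higher after the hormones (0.00966%) and 6 were lower (0.0193%). They belonged to 7 named genes, with A2m, Dip2b, Nipsnap1 and Dido1 lower and Clec4a1, Cbln2 and RGD1565926_predicted higher, and to 1 probe set with no gene. The hormone and control arrays of all 9 probe sets did not overlap, as was true of 2.74% of all 14235 genes at 1 probe set per gene (1.29% with hormone arrays all above, 1.45% all below). Since the 9 were picked by p on these same arrays, their lack of overlap is a description only. At 1 probe set per gene 5 genes, or 0.0351%, passed, since the probe sets that passed for Dido1 and RGD1565926_predicted are not their gene's brightest. An unadjusted p under 0.05 was reached by 6440 probe sets, 3011 of them higher and 3429 lower in hormone rats. The median difference over all probe sets was 0.03. Single arrays moved this count: leaving out control replicate 2 gave 1884, leaving out control replicate 6 gave 33, and leaving out control replicate 4 or 5 gave 0. No probe set passed without the 3 lymph node rich controls, when 2180 had an unadjusted p under 0.05, nor with the lymph node level as a covariate, when 2952 did. The first of these settings keeps only control replicates 2 and 6, so it has less power to detect a difference. Leaving out hormone replicate 1 or 4 also gave 0, and why calls were lost was not tested. With array weights 1374 passed, and with the hormone and control arrays alone in the fit 1 passed, which was none of the 9 (5348 at an unadjusted p under 0.05). The calls are therefore given below with every array's value.

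**Figure D1:**
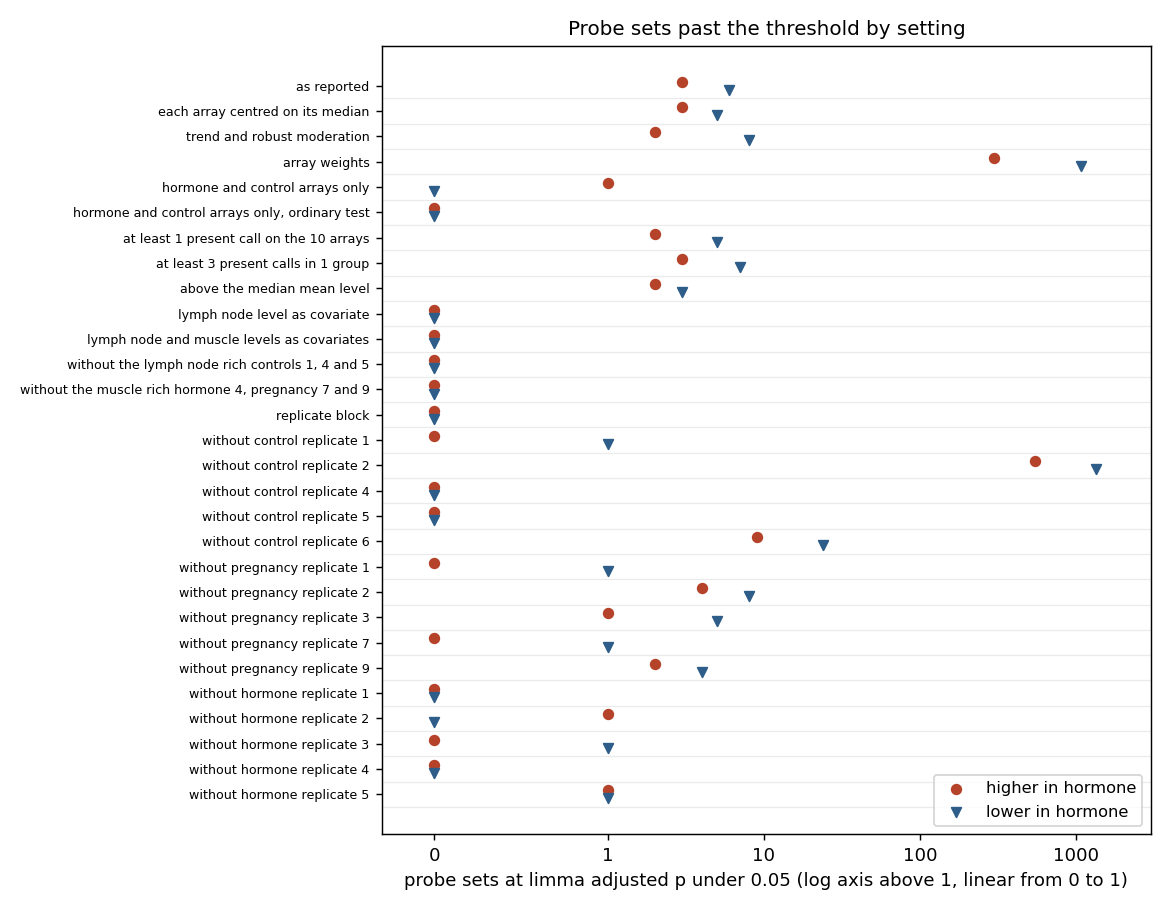
Number of probe sets at a limma adjusted p under 0.05 (horizontal axis, logarithmic above 1 and linear from 0 to 1) that were higher (circles) or lower (triangles) in hormone rats, under each of 28 other settings and as reported (top). The count as reported is 3 higher and 6 lower, it is 545 and 1339 without control replicate 2, and it is 0 with the lymph node level as a covariate and without the lymph node rich controls.

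**Figure D2:**
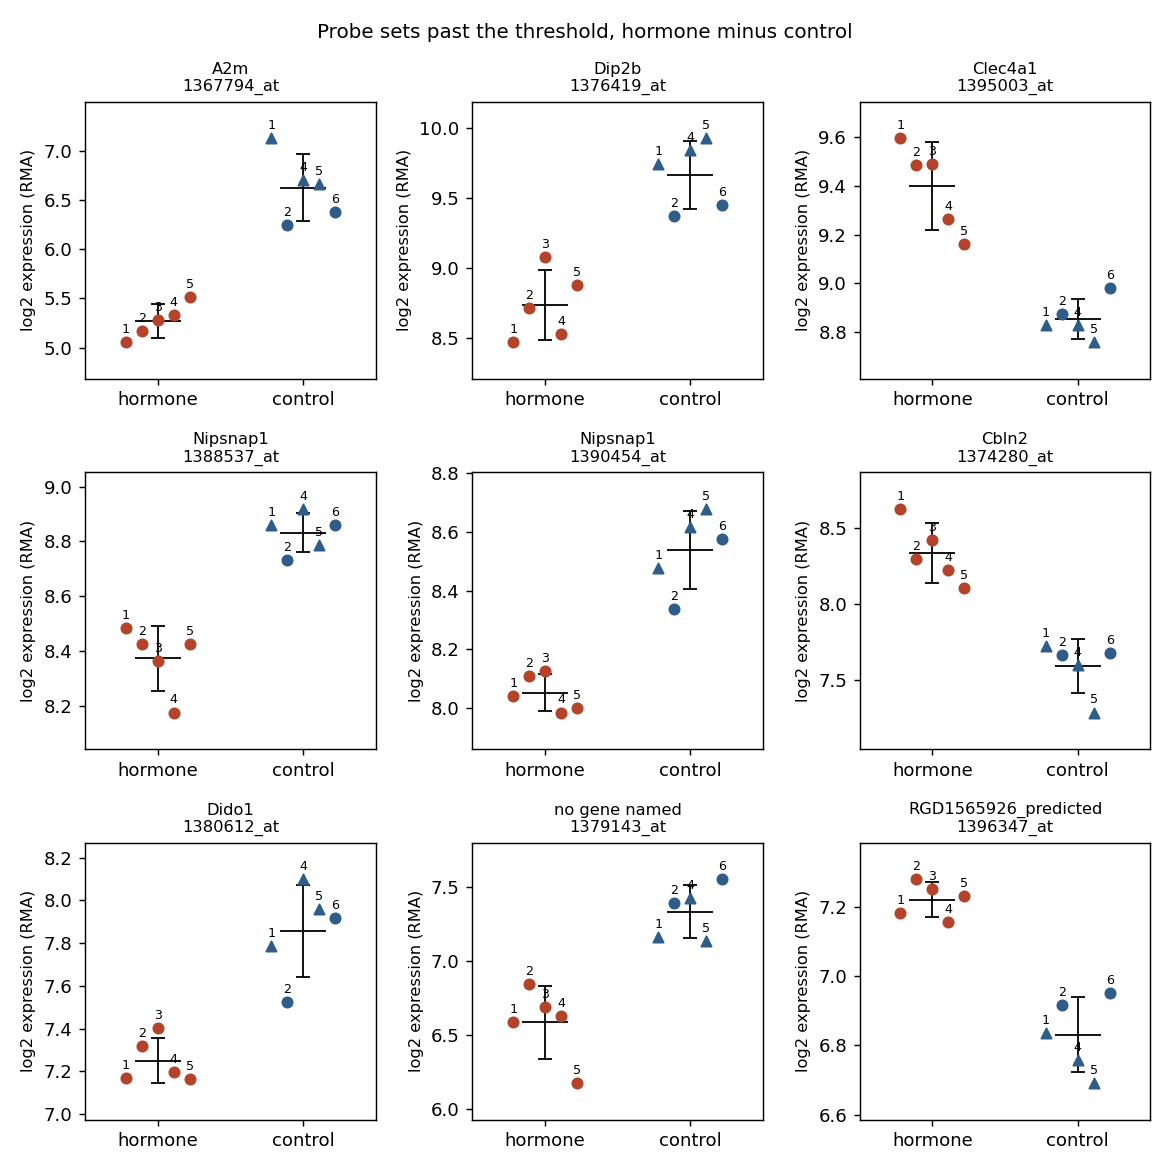
Log2 expression (vertical axes, RMA) of the 9 probe sets past the threshold on the 5 hormone arrays (left, red) and the 5 control arrays (right, blue), with the replicate number above each point and the mean ± SD as bars. Triangles mark control replicates 1, 4 and 5, which were rich in lymph node transcripts. In every panel the groups do not overlap.

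Among the 9 probe sets that passed, the largest difference was in A2m, alpha-2-macroglobulin, a broad protease inhibitor that in the rat is a classic acute phase protein of the liver and is induced through IL-6 type cytokines. Its log2 values were 5.06, 5.17, 5.28, 5.33 and 5.52 on the hormone arrays, against 7.13, 6.25, 6.71, 6.66 and 6.38 on the control arrays. All 5 hormone arrays were below all 5 controls, and A2m was called present on 0 of 5 hormone arrays and on 5 of 5 controls. A2m fell by 1.35 on the log2 scale (SE 0.17, limma adjusted p = 0.0241). Because the hormone arrays were not told from background, the difference is that of the measured values and is no lower bound. In the pregnancy rats A2m lay between 5.68 and 6.52 and was present on 4 of 5 arrays, and the difference of hormone minus pregnancy, −0.88, did not pass (limma adjusted p = 0.303). Without control replicates 1, 4 and 5 the difference from control was −1.04 (limma adjusted p = 0.204). With each of the 15 arrays left out in turn it lay between −1.45 and −1.23.

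Nipsnap1, which codes for a mitochondrial protein that in human cells marks damaged mitochondria for removal by mitophagy, was lower by both of its probe sets. The first read 8.48, 8.42, 8.36, 8.17 and 8.42 in hormone rats, against 8.86, 8.73, 8.92, 8.79 and 8.86 in control rats. The second read 8.04, 8.11, 8.13, 7.99 and 8.0 in hormone rats, against 8.48, 8.34, 8.62, 8.68 and 8.58 in control rats. Every hormone value was below every control value in both, and the spread inside each group was small. The first fell by 0.46 (SE 0.06, limma adjusted p = 0.0316) and the second by 0.48 (SE 0.07, limma adjusted p = 0.0379). Against the 2 controls poor in lymph node the differences were −0.42 and −0.40 (limma adjusted p = 0.317 and 0.348). The pregnancy mean of the first probe set was 8.41, next to 8.37 in hormone rats, and that of the second was 8.22, next to 8.05. Its relative Nipsnap2, which shares the mitophagy role, had a difference of 0.25 that did not pass (limma adjusted p = 0.191), and of 0.098 without the lymph node rich controls. Among 20 genes of the NIPSNAP and mitophagy list, Nipsnap1 alone passed, as did 0.0351% of all genes. A positive difference was seen in 13 with all controls (57.8% of all genes) and in 12 without the lymph node rich ones. The medians were 0.07 and 0.0097.

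Dip2b, a member of the disco-interacting protein family with domains like those of acyl-CoA synthetases, had log2 values of 8.47, 8.72, 9.08, 8.53 and 8.88 in hormone rats, against 9.74, 9.37, 9.85, 9.93 and 9.46 in control rats. Dip2b fell by 0.93 (SE 0.13, limma adjusted p = 0.0316), with no overlap. The pregnancy mean was 9.43, and hormone minus pregnancy was −0.69 without passing (limma adjusted p = 0.303). The other 2 probe sets of the gene had differences of −0.73 and −0.47 with limma adjusted p of 0.0895 and 0.198, and the groups of the set at −0.73 did not overlap either. The probe set that passed had a difference of −0.68 without the lymph node rich controls (limma adjusted p = 0.317), and the other 2 had −0.41 and 0.058. Dido1, death inducer-obliterator 1, a chromatin-associated protein, read 7.17, 7.32, 7.40, 7.20 and 7.16 in hormone rats, against 7.79, 7.52, 8.10, 7.96 and 7.92 in control rats. Dido1 fell by 0.61 (SE 0.09, limma adjusted p = 0.0379), but this probe set was present on 0 of 5 hormone arrays and 3 of 5 controls. Of the gene's other 3 probe sets, 2 were present on every array and had differences of −0.22 and −0.08. Neither passed (limma adjusted p = 0.187 and 0.559). The last was called present in neither group, so no size is given. Without the lymph node rich controls the probe set that passed had −0.47 (limma adjusted p = 0.351). The 2 sets present on every array had −0.036 and 0.096.

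Cbln2, cerebellin 2, codes for a secreted protein of the C1q family known as an organiser of synapses. Cbln2 read 8.63, 8.30, 8.42, 8.23 and 8.11 in hormone rats, against 7.72, 7.67, 7.60, 7.29 and 7.68 in control rats. The lowest hormone array stood above the highest control. Cbln2 rose by 0.74 (SE 0.11, limma adjusted p = 0.0379) and was called present on 5 of 5 hormone arrays and 4 of 5 controls. It was the only probe set of 31042 (0.00322%) that also differed between hormone and pregnancy rats. The pregnancy arrays read 7.74, 7.49, 7.40, 7.41 and 7.25, and hormone minus pregnancy was 0.88 (limma adjusted p = 0.0359). Pregnancy rats had a present call on 1 of 5 arrays. Cbln2 differed by 0.66 from the 2 controls poor in lymph node (limma adjusted p = 0.317).

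Clec4a1, a lectin receptor that myeloid cells carry on their surface, had log2 values of 9.60, 9.49, 9.49, 9.26 and 9.16 in hormone rats, against 8.83, 8.87, 8.83, 8.76 and 8.98 in control rats. Clec4a1 rose by 0.55 (SE 0.08, limma adjusted p = 0.0316), with hormone replicates 4 and 5 the lowest of their group and still above every control. The difference was 0.47 without the lymph node rich controls (limma adjusted p = 0.347). The pregnancy arrays read 9.19 to 9.25, also above every control. Hormone minus pregnancy for Clec4a1 was 0.17 without passing (limma adjusted p = 0.478). RGD1565926_predicted, a gene the array annotation does not describe, read 7.18, 7.28, 7.25, 7.15 and 7.23 in hormone rats, against 6.83, 6.92, 6.76, 6.69 and 6.95 in control rats, a rise of 0.39 (SE 0.06, limma adjusted p = 0.0451). Without the lymph node rich controls it was 0.29 higher (limma adjusted p = 0.412), and its second probe set was 0.43 higher without passing (limma adjusted p = 0.139). The last probe set names no gene and was called present in neither group, so no size is given.

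Since the capsules held an estrogen and a progestin, the promoters of the genes that passed were searched for core sequences of steroid response elements and of the element through which STAT3 acts on acute phase genes. RefSeq promoters of build GRCr8, 250 bases before and 50 after the start of each gene, were at hand for Cbln2, Clec4a1, Dido1, Dip2b and Nipsnap1. Both strands were searched for AGAACA (core of the element bound by progesterone, androgen and glucocorticoid receptors), GGTCA (core of the estrogen response element), the full estrogen response element (GGTCA, 3 bases of any kind, then TGACC, which contains the core) and CTGGGAA (acute phase element). AGAACA stood in 2 of the 5, GGTCA in 1, and the other motifs in 0. Over all 27457 promoters of this length the shares were 20.1% for AGAACA, 40.2% for GGTCA, 0.0255% for the full element and 10.9% for CTGGGAA, so the matches describe these letters only. The 3 promoters with a match are shown 5′ to 3′ with the motif in capitals. In Cbln2 (chr18:82215953-82216252, plus strand) AGAACA begins 36 bases before the start, in Nipsnap1 (chr14:83957464-83957763, plus strand) AGAACA begins 176 bases before it, and in Dip2b (chr7:133053145-133053444, plus strand) TGACC, which is GGTCA on the reverse strand, begins 9 bases after it.
Cbln2: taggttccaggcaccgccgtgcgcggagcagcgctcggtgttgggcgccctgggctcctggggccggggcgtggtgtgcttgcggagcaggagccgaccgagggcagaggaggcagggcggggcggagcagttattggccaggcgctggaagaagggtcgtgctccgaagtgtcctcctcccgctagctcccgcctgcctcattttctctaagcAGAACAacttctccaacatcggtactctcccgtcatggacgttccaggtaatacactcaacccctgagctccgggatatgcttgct
Nipsnap1: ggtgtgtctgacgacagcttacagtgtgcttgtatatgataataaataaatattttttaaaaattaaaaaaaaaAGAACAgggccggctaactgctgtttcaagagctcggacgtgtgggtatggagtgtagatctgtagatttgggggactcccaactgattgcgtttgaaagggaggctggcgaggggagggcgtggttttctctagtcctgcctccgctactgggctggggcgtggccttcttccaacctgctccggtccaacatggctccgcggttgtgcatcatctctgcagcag
Dip2b: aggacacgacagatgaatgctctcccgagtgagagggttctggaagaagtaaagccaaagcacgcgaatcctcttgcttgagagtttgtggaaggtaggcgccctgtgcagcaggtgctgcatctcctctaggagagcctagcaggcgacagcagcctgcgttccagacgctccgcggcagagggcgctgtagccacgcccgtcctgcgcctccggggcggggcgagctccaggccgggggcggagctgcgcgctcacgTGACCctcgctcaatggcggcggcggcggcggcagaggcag

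Beyond the genes that passed, the 12 higher and the 12 lower genes with the smallest p (at least 3 present calls in a group) had limma adjusted p between 0.0615 and 0.124. None passed, and 19 of the 24 had groups that did not overlap, 7 of them higher and 12 lower in hormone rats. Over all genes, 2.74% had groups that did not overlap. Since the 24 were picked by p, the count of 19 is a description only. The higher ones included Gpnmb, Lilrb2, LOC498279, Chrnd, Pllp, Mmp12, Folr1, Pik3c2g, Rhob, Xdh and Tf. Gpnmb, a transmembrane glycoprotein of lysosome-rich macrophages, read 12.62, 12.25, 12.84, 12.26 and 12.60 in hormone rats, against 11.90, 11.76, 11.58, 11.30 and 11.65 in control rats. The gap between the groups was complete, and the difference was 0.87 (SE 0.15, limma adjusted p = 0.0755) and 0.80 without the lymph node rich controls. Mmp12, macrophage elastase, had the largest difference of the 12, 1.56 (SE 0.35), with hormone replicate 2 inside the control range. Lilrb2, an inhibitory receptor of myeloid cells whose probes may not be told from its close relatives, was 0.61 higher without overlap. Folr1, the folate receptor also found in milk, was 1.03 higher, Xdh, the xanthine dehydrogenase of the milk fat globule, was 0.27 higher without overlap, and Tf, the iron carrier transferrin, was 0.30 higher.

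The 12 lower genes, none of which passed, were Aagab-ps2, Gria3, Notch1, Emid1, Tmem161b, Adam11, RGD1562031_predicted, Fancb, Aagab, Gtf3c1, Slc4a7 and Kdm3a, and all had groups that did not overlap. Over all genes, 1.45% had hormone arrays all below the controls. As the 12 were picked by p, their lack of overlap is a description only. Notch1, a receptor of contact-dependent cell signalling that in the gland favours the luminal fate, read 8.85, 8.98, 9.21, 9.18 and 9.10 in hormone rats, against 9.47, 9.33, 9.60, 9.84 and 9.59 in control rats. Its difference was −0.50 (SE 0.09, limma adjusted p = 0.0895). Gria3, a subunit of AMPA-type glutamate receptors, read 5.97, 6.07, 6.19, 6.03 and 5.99 in hormone rats, against 7.16, 6.50, 7.12, 7.11 and 7.08 in control rats. Control replicate 2 stood apart from the other controls and still above all hormone arrays, and the difference was −0.94 (SE 0.17). Aagab, an adaptin-binding protein of clathrin traffic, and its close relative Aagab-ps2 had differences of −0.60 and −0.44, and their hybridisation may not be separate. Aagab was called present on 0 of 5 hormone arrays and on 5 of 5 controls, so that −0.60 is the difference of the measured values and no lower bound. Fancb, of the Fanconi anaemia repair complex, had −0.68. Gtf3c1, a subunit of the RNA polymerase III factor TFIIIC, had −0.31 (−0.20 without the lymph node rich controls), and Kdm3a, a histone H3 lysine 9 demethylase, had −0.38.

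Macrophage transcripts read higher in hormone rats as a group. All 22 measured members of the macrophage list had a positive difference, against 57.8% of all genes. Their median was 0.28, against 0.03 for all genes, and it was 0.25 without the lymph node rich controls, when 21 of 22 were positive. None passed, 4 had hormone arrays all above the controls (1.29% of all genes did), and 13 had an unadjusted p under 0.05, as did 22.3% of all genes in either direction. The list level was 0.12, 0.03, 0.22, 0.05 and 0.06 on the hormone arrays, against −0.30, −0.33, −0.28, −0.51 and −0.21 on the controls. The hormone arrays were all above the controls, whether rich or poor in lymph node, and 3 of them were just under the pregnancy range of 0.07 to 0.43. Beside Gpnmb and Mmp12, Tyrobp, the signalling adaptor of myeloid receptors, was 0.27 higher without overlap (SE 0.08, limma adjusted p = 0.144). Ctsd, the lysosomal protease cathepsin D, was 0.34 higher (SE 0.09), and Itgam, the integrin CD11b, was 0.27 higher (SE 0.08), neither passing.

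The receptors that myeloid cells carry on their surface gave a similar picture. The members of this and the macrophage list were chosen with earlier results of these data known, so their counts are descriptions without a test. Of 14 measured C-type lectin and immunoglobulin-like receptors, Clec4a1 alone passed (0.0351% of all genes did), 12 were positive (57.8% of all genes), and 4 had hormone arrays all above the controls (1.29% of all genes): Clec4a1, Lilrb2, Lilrb4 and Cd300a. The median was 0.46, and 0.29 with 14 of 14 positive without the lymph node rich controls. Lilrb4, an inhibitory receptor, read 8.10, 7.81, 8.79, 8.03 and 8.37 in hormone rats, against 7.38, 7.42, 7.45, 7.13 and 7.36 in control rats. Its difference was 0.87 (SE 0.23, limma adjusted p = 0.139). Cd300a, another inhibitory receptor, was 0.45 higher (SE 0.12, limma adjusted p = 0.139). The list level was 0.16, 0.28, 0.28, −0.08 and −0.10 on the hormone arrays, against −0.41 to −0.14 on the controls. Hormone replicates 4 and 5 were closest to the controls here, as they were for Clec4a1. The neutrophil list, another myeloid type, had 7 of 7 positive with a median of 0.26 and none passing, and 7 of 7 with a median of 0.15 without the lymph node rich controls. The mast cell list had 3 of 12 positive with a median of −0.07.

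**Figure D3:**
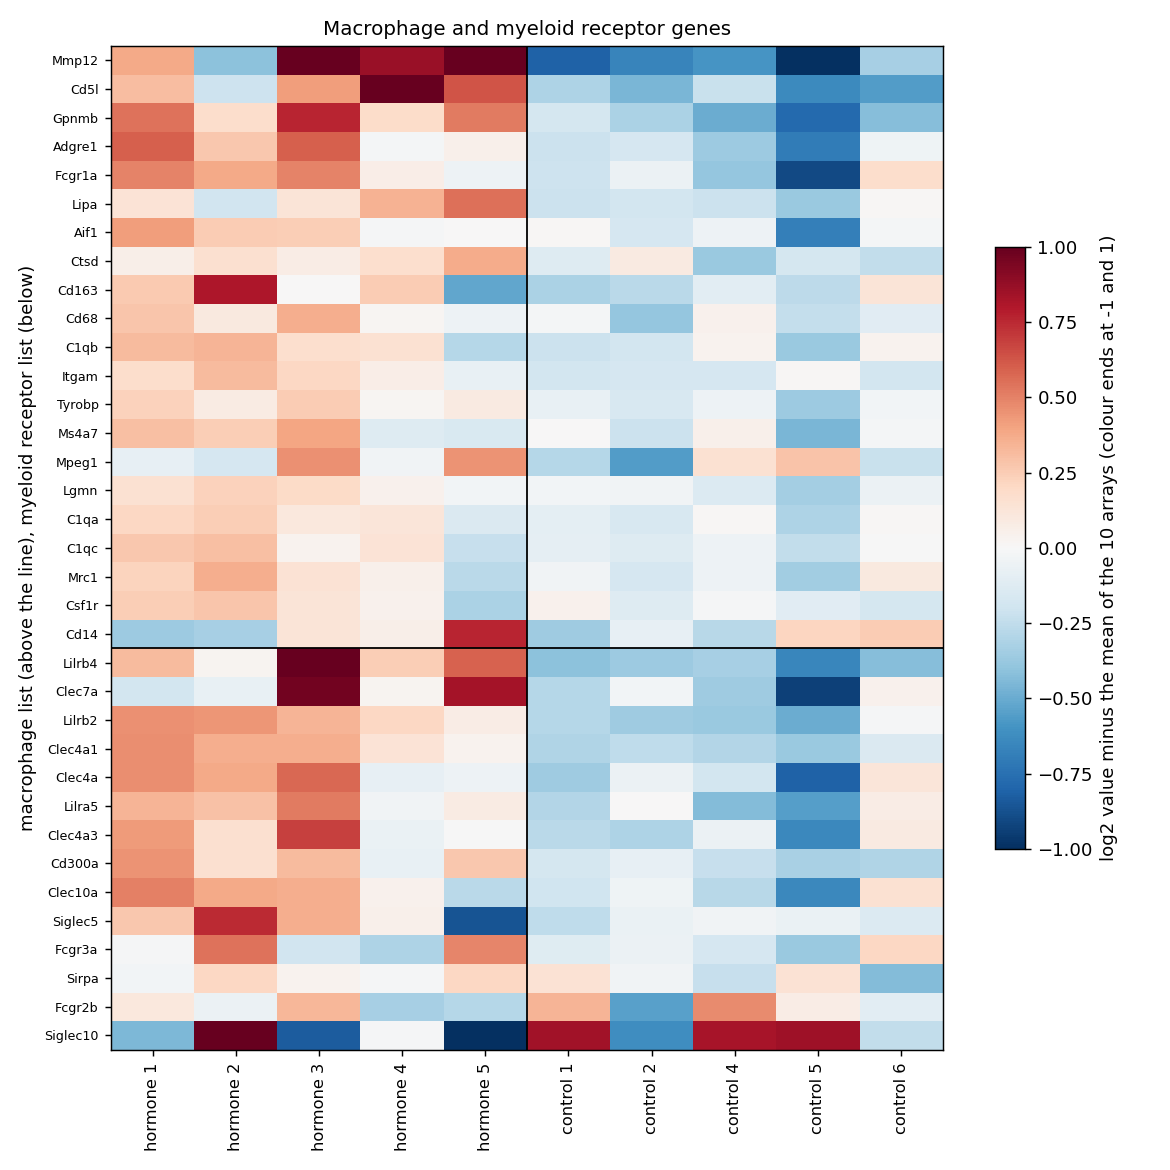
Log2 values of the macrophage list (21 genes with a present call, above the line) and of the myeloid receptor list (14 genes, below the line), each gene minus its mean over the 10 arrays, with hormone arrays on the left and control arrays on the right. Red is above and blue below the mean. Most genes are red in hormone replicates 1 to 3 and blue in control replicate 5, and Clec4a1 alone passed the test.

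Milk genes were higher in most hormone rats, without a call. Of 20 measured genes 19 had a positive difference, against 57.8% of all genes, with a median of 0.26. Xdh alone had hormone arrays all above the controls, as 1.29% of all genes did. Csn2, beta-casein, the main milk protein, had 14.09, 11.50, 13.40, 14.25 and 14.19 in hormone rats, against 9.79, 11.13, 9.60, 12.14 and 12.97 in control rats. Apart from hormone replicate 2, every hormone array was above every control, and the difference of 2.36 (SE 0.62) did not pass (limma adjusted p = 0.139). Wap, whey acidic protein, was 1.25 higher (SE 0.51, limma adjusted p = 0.200), Csn3, kappa-casein, was 0.42 higher (SE 0.12), and Lalba, alpha-lactalbumin of lactose synthesis, was 0.21 higher (SE 0.11). The level of the list was −0.58 to 0.37 on the hormone arrays, against −0.70 to −0.05 on the controls. Without the lymph node rich controls, 14 of 20 were positive, the median was 0.18, and the differences were 1.43 for Csn2, 1.09 for Wap, 0.24 for Csn3 and 0.081 for Lalba.

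Structural genes of the epithelium did not share that direction. The luminal list had 8 of 19 positive with a median of −0.04, and the basal list 6 of 16 with a median of −0.07. None passed. Against control replicates 2 and 6 alone, the medians were −0.35 and −0.36, with 3 of 19 and 3 of 16 positive. Prom1, the luminal surface protein prominin 1, was 0.72 higher (SE 0.22, limma adjusted p = 0.151), while Krt7, a luminal keratin, had −0.45 (SE 0.22) and Krt14, the basal keratin, −0.44 (SE 0.34). Against control replicates 2 and 6 the differences were 0.38 for Prom1, −0.81 for Krt7 and −1.09 for Krt14. The luminal level was −0.42, −0.34, 0.05, 0.10 and 0.39 on the hormone arrays, against −0.34, 0.17, −0.36, 0.02 and 0.38 on the controls, so the groups spanned nearly the same range.

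**Figure D4:**
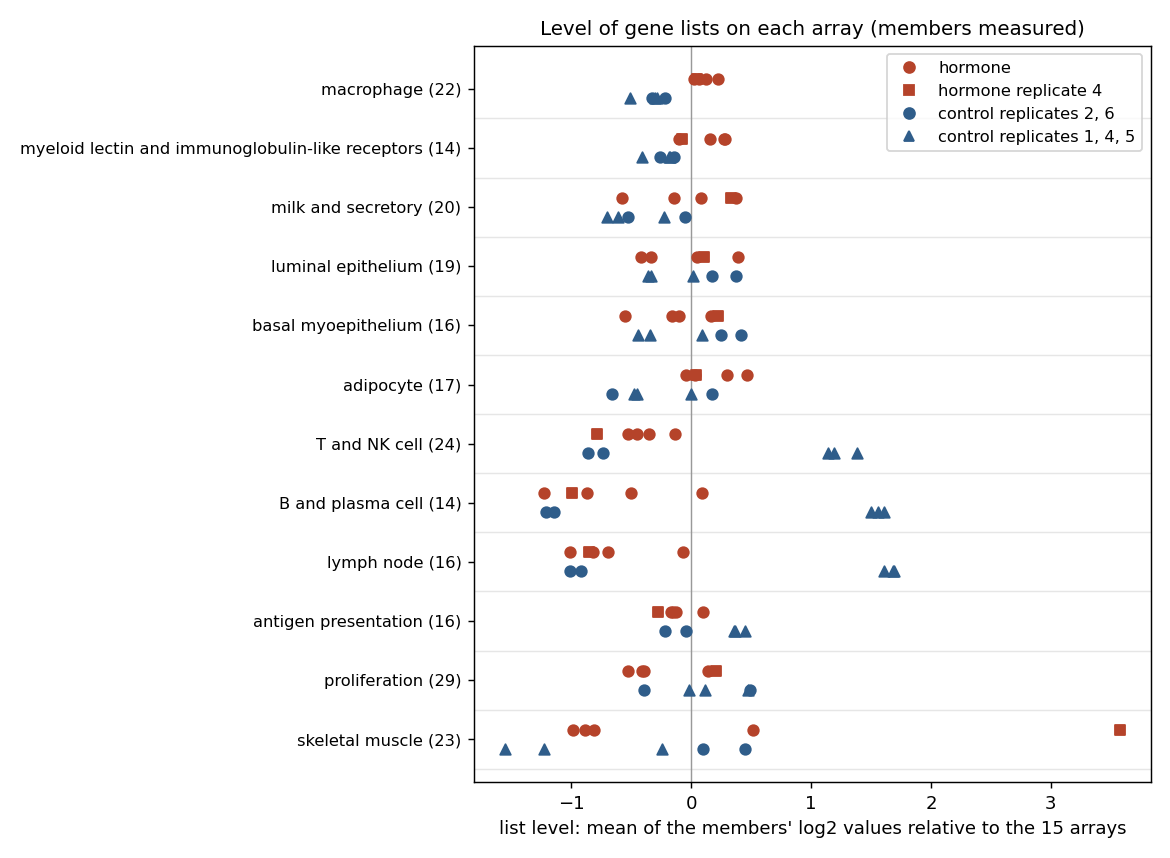
Level of 12 gene lists (horizontal axis, log2, relative to the mean of all 15 arrays) on the hormone arrays (red, upper of each pair) and the control arrays (blue, lower), with the number of measured members in brackets. Squares mark hormone replicate 4 and triangles control replicates 1, 4 and 5. The macrophage and myeloid receptor levels of the hormone arrays lie above those of all controls, the lymphoid lists split the controls, and hormone replicate 4 stands at 3.58 for skeletal muscle.

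The receptors for the hormones given, and the genes they act on in the gland, showed no call 49 days after withdrawal. Esr1, estrogen receptor alpha, read 7.68, 7.09, 6.98, 6.54 and 7.29 in hormone rats, against 6.20, 6.81, 6.33, 7.22 and 6.15 in control rats. The groups overlapped, and the difference was 0.58 (SE 0.24, limma adjusted p = 0.209). Pgr, the progesterone receptor, had 7.60 ± 0.66 in hormone rats and 7.66 ± 0.97 in control rats (SD, n = 5 each). Areg, amphiregulin, is the estrogen-induced ligand of the EGF receptor. Areg had 10.5 ± 1.04 in hormone rats and 10.7 ± 0.95 in control rats (SD, n = 5 each). The differences of Pgr and Areg, −0.06 (SE 0.53) and −0.22 (SE 0.56), did not pass (limma adjusted p = 0.956 and 0.840). They were −0.71 and −0.73 without the lymph node rich controls. Of 27 measured receptors and mammary targets 12 had a positive and 15 a negative difference, with a median of −0.06, and 10 were positive with a median of −0.12 without those controls. Gata3, the transcription factor of luminal identity, had −0.35 (SE 0.11, limma adjusted p = 0.159). Tnfsf11, RANK ligand, the paracrine signal of progesterone, had 4.33, 4.02, 4.24, 4.30 and 4.63 in hormone rats, against 7.15, 4.19, 7.33, 7.05 and 4.25 in control rats. Its high values were in the controls rich in lymph node, and the difference was −1.69 with them and 0.08 without them. Among 19 genes of steroid and xenobiotic metabolism 15 were positive with a median of 0.12 and none passed, and 12 were positive with a median of 0.034 without those arrays. Only 11 of these 19 had a present call on any hormone or control array.

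Growth factor pathways were equally without a call. The growth hormone and IGF axis had 9 of 19 positive and a median of −0.01. Igf1, the growth factor made in the gland's stroma, had 13.3 ± 0.26 in hormone rats and 13.1 ± 0.19 in control rats (SD, n = 5 each), a difference of 0.23 (SE 0.14, limma adjusted p = 0.347), or 0.33 without the lymph node rich controls. Ghr, the growth hormone receptor, had 11.9 ± 0.39 in hormone rats and 11.3 ± 0.48 in control rats (SD, n = 5 each), a difference of 0.59 (SE 0.23, limma adjusted p = 0.192), or 0.34 without them. Igfbp3, which binds IGF1 in the extracellular space, had −0.55 (SE 0.23). The EGF family had 8 of 12 positive, the TGF-beta family 13 of 20, the Wnt list 9 of 24 and the Notch list 13 of 19, with medians of 0.06, 0.08, −0.06 and 0.07. With the lymph node rich controls left out, 2 of 12 EGF family genes were positive (median −0.079), 10 of 20 of the TGF-beta family (0.0051), 9 of 24 of the Wnt list (−0.16) and 9 of 19 of the Notch list (−0.0093). Tgfb3, a TGF-beta ligand linked to involution, had 0.19 with all controls (SE 0.20, limma adjusted p = 0.589) and −0.19 without the lymph node rich ones. Ltbp2, a matrix protein of the latent TGF-beta binding family, had −0.58 (SE 0.20), or −0.94 without them.

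Within the Wnt list the level of every hormone array, −0.11 to −0.02, was below that of every control, 0.00 to 0.19. Lef1, a nuclear partner of beta-catenin that T cells also express, had 7.72, 7.59, 7.15, 7.40 and 7.93 in hormone rats, against 10.91, 7.57, 11.08, 11.19 and 7.43 in control rats. Only the 3 controls rich in lymph node were high, and the difference was −2.08 with them and 0.05 without them. Fzd4, a Wnt receptor, was 0.54 higher (SE 0.17, limma adjusted p = 0.158). In the Notch list, Maml1, a co-activator of Notch transcription, had −0.24 (SE 0.07) and Jag1, a ligand, 0.26 (SE 0.10). Neither passed, and together with Notch1 they were the 3 with the smallest p among the 19. Maml1 had −0.089 and Jag1 0.095 without the lymph node rich controls.

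Fat cell genes read higher in hormone rats in number but not by test. All 17 adipocyte genes had a positive difference, with a median of 0.50, and 17 of 17 were positive with a median of 0.41 without the lymph node rich controls. Plin1, the coat protein of lipid droplets, was 0.51 higher (SE 0.17, limma adjusted p = 0.159), and Pnpla2, the lipase that starts fat breakdown, 0.41 higher (SE 0.14, limma adjusted p = 0.163). The list level was 0.30, 0.46, −0.04, 0.04 and 0.04 on the hormone arrays, against 0.00, 0.17, −0.47, −0.45 and −0.66 on the controls. The groups overlapped through control replicates 1 and 2. Of 23 genes of fatty acid and triglyceride synthesis 18 were positive, with a median of 0.21, and Dgat1, which makes triglyceride, was 0.51 higher (SE 0.16, limma adjusted p = 0.150). When the lymph node rich controls were left out, 16 of 23 were positive with a median of 0.091, and Dgat1 had 0.32. Scd2, a stearoyl-CoA desaturase, ran against the list. Scd2 had 10.97, 11.15, 11.39, 11.45 and 11.44 in hormone rats, against 11.96, 11.49, 11.92, 11.79 and 11.91 in control rats, with no overlap and a difference of −0.53 (SE 0.12, limma adjusted p = 0.114). The cholesterol synthesis list had 12 of 22 positive and a median of 0.02, with −0.42 (SE 0.14) for Srebf2, its main regulator. These values were 9 of 22, −0.016 and −0.077 without the lymph node rich controls. The brown fat list had 6 of 9 positive and a median of 0.08, or 5 of 9 and 0.042 without them. Only 5 of these 9 genes had a present call on any hormone or control array.

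Subunits of oxidative phosphorylation had small positive differences that were not seen against the controls poor in lymph node. Of 32 genes 31 were positive, with a median of 0.11, but without control replicates 1, 4 and 5 it was 12 of 32 with a median of −0.01. Ndufa5, a complex I subunit, had 0.25 (SE 0.10) with all controls and −0.0029 when those 3 were left out. Extracellular matrix genes had 24 of 38 positive and a median of 0.06, or 19 of 38 and −0.0026 without those 3. Tnc, tenascin C, a matrix protein of tissue remodelling, had 6.74, 6.22, 6.20, 6.87 and 7.09 in hormone rats, against 7.36, 6.91, 7.51, 7.60 and 7.49 in control rats. Only control replicate 2 lay inside the hormone range, and the difference was −0.75 (SE 0.24, limma adjusted p = 0.156). Matrix proteases and their inhibitors had 17 of 22 positive and a median of 0.12, led by Mmp12, or 14 of 22 and 0.054 without those 3 controls.

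Acute phase and IL-6 type genes other than A2m gave no call. Of 29 measured genes 19 had a positive difference (57.8% of all genes), and the median was 0.10. A2m alone passed, as did 0.0351% of all genes. Lifr, a receptor of the IL-6 family of cytokines, was 0.24 higher without overlap (SE 0.07, limma adjusted p = 0.141). Orm1, orosomucoid 1, an acute phase plasma protein, was 0.38 higher (SE 0.12, limma adjusted p = 0.150) and was present on 3 of 5 hormone arrays and 0 of 5 controls. Orm1 had 0.25 without the lymph node rich controls. Lbp, the lipopolysaccharide binding protein, had 13.2 ± 0.57 in hormone rats and 13.1 ± 0.36 in control rats (SD, n = 5 each), a difference of 0.08 (SE 0.23, limma adjusted p = 0.869), or −0.036 without them. Among 20 synapse proteins, the list that holds Cbln2, 15 were positive (57.8% of all genes) and Cbln2 alone passed (0.0351% of all genes). Only 13 of these 20 had a present call on any hormone or control array.

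Lymphocyte genes had negative differences against all controls and positive ones against the controls poor in lymph node. The lymph node list had 13 of 16 genes with a negative difference and a median of −1.69, the B and plasma cell list 11 of 14 and −1.23, and the T and NK cell list 17 of 24 and −1.25. Against control replicates 2 and 6 the medians were 0.18, 0.29 and 0.36, with 14 of 16, 13 of 14 and 24 of 24 positive. Cd79b, part of the B cell receptor, shows the pattern, with 6.71, 6.73, 6.54, 6.49 and 8.02 in hormone rats, against 11.04, 6.52, 11.18, 11.32 and 6.65 in control rats. The other controls lay with the hormone arrays, and the difference of −2.45 (SE 1.04) became 0.31 without the 3 arrays. Zap70, a kinase of the T cell receptor, had −1.43 (SE 0.51) with all controls and 0.01 without the 3. None of these genes passed.

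Among the cytotoxic and chemokine genes, Gzma, Gzmb and Ccl21 are given with both sets of controls, and none of them passed. Gzma, granzyme A of cytotoxic lymphocytes, read 8.75, 8.93, 9.15, 9.46 and 9.81 in hormone rats, against 7.86, 8.75, 8.11, 7.44 and 9.02 in control rats. It was 0.99 higher (SE 0.30, limma adjusted p = 0.146) with overlap through control replicates 2 and 6, and 0.34 higher against these alone. Gzmb, granzyme B, was 0.45 higher (SE 0.14, limma adjusted p = 0.152), and 0.35 higher against the same 2 controls. Ccl21, the chemokine that guides T cells and dendritic cells into lymph nodes, was the member of the lymph node list whose groups did not overlap. Its values were 11.59, 12.37, 12.70, 12.69 and 12.61 in hormone rats, against 13.36, 12.94, 13.57, 13.34 and 13.11 in control rats. Its difference was −0.87 (SE 0.20, limma adjusted p = 0.122), and −0.63 against the controls poor in lymph node.

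Antigen presentation genes had 13 of 16 negative and a median of −0.35, which became −0.04 without the 3 controls, and Psmb9, an immunoproteasome subunit, had −0.35 (SE 0.13), or −0.19 without them. The interferon response list had 9 of 20 positive with a median of −0.04, and 0.12 without the 3 controls.

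**Figure D5:**
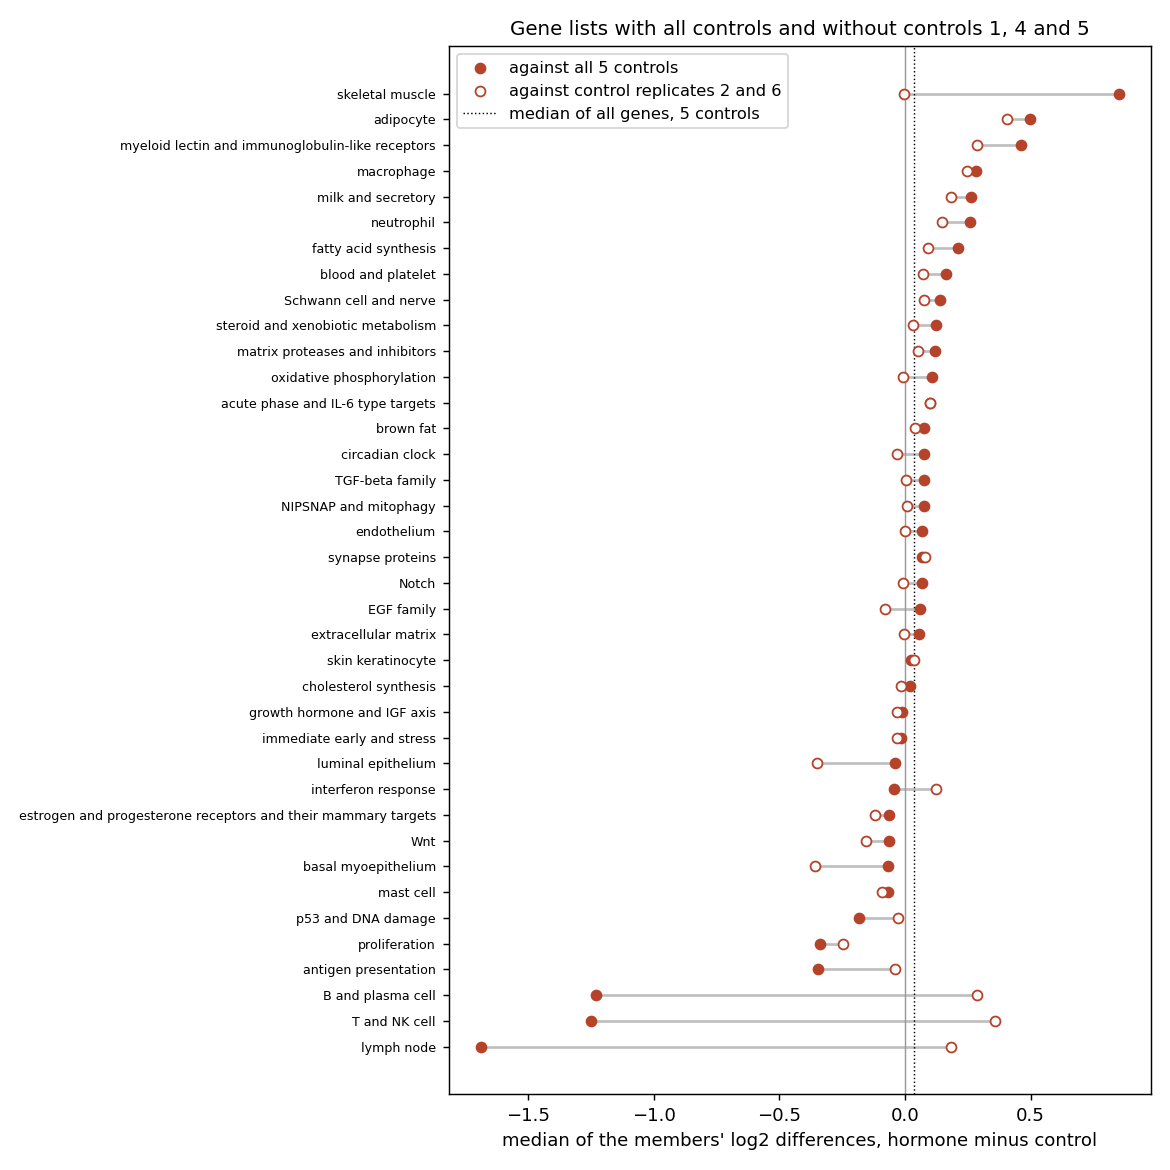
Median log2 difference of hormone minus control for each of the 38 gene lists (horizontal axis) against all 5 controls (filled) and against control replicates 2 and 6 (open), with the median of all genes as a dotted line. The lymph node, T and NK cell and B and plasma cell medians turn from below −1 to above 0, while the macrophage, myeloid receptor, adipocyte and milk medians stay positive and the proliferation median stays negative.

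Genes of cell division had mostly negative differences in hormone rats. Of 29 genes 27 had a negative difference, with a median of −0.34, and 29 of 29 were negative with a median of −0.25 against control replicates 2 and 6. None passed and none had groups without overlap. Mcm3, of the replicative helicase, had 8.56, 8.24, 8.22, 8.35 and 8.40 in hormone rats, against 9.85, 8.22, 9.95, 10.23 and 8.95 in control rats. Its difference of −1.09 (SE 0.31, limma adjusted p = 0.143) was −0.23 without the lymph node rich controls, while that of Mcm7, of the same complex, was −0.29 (SE 0.10) and −0.27 without them. The level of the list was −0.39, −0.41, −0.53, 0.21 and 0.14 on the hormone arrays, against −0.01, −0.39, 0.12, 0.48 and 0.49 on the controls. Hormone replicates 1 to 3 and control replicate 2 were low, and hormone replicates 4 and 5 lay inside the control range.

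The p53 and DNA damage list had 19 of 25 negative and a median of −0.18, or −0.03 without the lymph node rich controls. Its level was −0.07 to −0.04 on the hormone arrays, against −0.03 to 0.15 on the controls, without overlap but with control replicate 2 next to the hormone arrays. Btg2, an antiproliferative p53 target, had −1.01 (SE 0.29), or −0.28 without the 3 controls, and Gadd45a, a growth arrest gene, was 0.62 higher (SE 0.18, limma adjusted p = 0.144), or 0.39 without them. Immediate early and stress genes had 12 of 24 positive and a median of −0.02, with Egr3, an early growth response factor, at −1.41 (SE 0.42) and Hspa1a, an inducible heat shock chaperone, at −0.53 (SE 0.16), neither passing. Without the 3 controls the list had 10 of 24 positive and a median of −0.032, with Egr3 at −0.53 and Hspa1a at −0.73.

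Skeletal muscle genes had 23 of 23 positive differences and a median of 0.85, while the median was −0.09 without hormone replicate 4, and −0.0052 with 11 of 23 positive without the lymph node rich controls. Tnnc1, slow troponin C, read 9.72 on that array, against 6.36 to 6.62 on the other hormone arrays and 5.96 to 6.63 on the controls. Endothelial genes had 17 of 22 positive and a median of 0.07, with Sox17, a transcription factor of arterial endothelium, 0.55 higher (SE 0.16, limma adjusted p = 0.143). Against control replicates 2 and 6, 11 of 22 were positive with a median of 0.0023, and Sox17 had 0.27. The remaining 4 lists, for blood and platelets, skin keratinocytes, Schwann cells and nerve, and the circadian clock, had medians between 0.02 and 0.16 and no gene that passed. Without the lymph node rich controls the medians were 0.072 for blood and platelets, 0.035 for skin keratinocytes, 0.074 for Schwann cells and nerve and −0.030 for the circadian clock. Only 6 of 10 blood and platelet genes and 7 of 13 keratinocyte genes had a present call on any hormone or control array.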

How the data were processed

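Total RNA of each gland (80 ng) was amplified and labelled with biotin by the NuGEN Ovation V2 kit, per the labels' protocols. The authors deposited log2 values per probe set made by RMA, with a MAS5 detection call beside each. GCOS, affy, RMA and MAS5 are the programs named, per the submitters' processing notes, and their versions and the annotation's build and date are not given in the sources used. Rats were grouped by the labels. The deposited table's per-sample columns that match no labelled sample (15 columns, 5 arrays) were not used, nor were the authors' own comparisons.

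The 57 control probe sets of 31099 were dropped, and tests ran on the other 31042 without an intensity filter. Symbols were updated by Entrez identifier for 22672, kept from the deposited table for 697, and 7673 named no gene, which left 14235 genes. A gene stands by its brightest probe set that names it alone, except that every probe set that passed is given.

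The model, a mean for each group over all 15 arrays, was fitted with limma 3.58.1 in R 4.3.3 and moderated by empirical Bayes (12 residual and 2.70 prior degrees of freedom). Tests were two-sided, and an adjusted p under 0.05 (Benjamini-Hochberg over all probe sets) passed. A "SE" is the moderated standard error of the log2 difference. Tested on simulated data with 200 changed probe sets, the fit recovered 62%, 94% and 99% of log2 changes of 0.5, 1 and 2. The simulated noise was independent between probe sets, without shifts that many genes of an array share, such as those of lymph node content. The shares therefore do not give the recovery on the real arrays. Tables were made with Python 3.11.15, pandas 2.3.3 and numpy 2.4.6.

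Named were the genes that passed, the 12 higher and 12 lower with the smallest p and at least 3 present calls in a group, up to 4 members per list with the smallest p, relatives of genes that passed, and a fixed set (Wap, Lalba, Csn2, Igf1, Ghr, Esr1, Pgr, Areg, Lbp and Tgfb3). The 38 lists hold 813 symbols, of which 734 were measured. The members and lists were chosen with earlier results of these data known, so counts over lists are descriptions without a test. One gene that the rule names is not reported here. No size is given where neither group had a present call. Alternatives were centring, moderation with a trend, array weights, only the hormone and control arrays, filters on detection and level, lymph node and muscle levels as covariates, a replicate block, and leaving out arrays.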

Additional observations from a re-analysis of the deposited data

Results flagged for a closer look

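Of 258 sets of 5 arrays looked at (the named genes and list levels in each group), 17 held 1 array set apart from the other 4 by more than Dixon's test allows, and chance sets apart about 1 in 20. Clock genes were among them. Bmal1, which drives the clock, read 7.23 to 7.60 on the hormone arrays, against 9.95 on control replicate 5 and 7.50 to 7.98 on the other controls. Dbp, one of its output genes, read 11.3 to 11.7 on the hormone arrays, against 8.82 on control replicate 5 and 11.1 to 11.6 on the other controls. The level of the circadian clock list was −0.05 to 0.05 on the hormone arrays, against −0.30 on control replicate 5 and −0.00081 to 0.11 on the other controls. In both genes and in the list, control replicate 5 was apart from all other arrays of both groups.

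Among the hormone arrays, replicate 5 was set apart for the B cell genes Cd79b, at 8.02, against 6.49 to 6.73, and Fcer2, at 6.27, against 5.08 to 5.31, and for the steroid and xenobiotic metabolism list, at 0.029, against 0.072 to 0.082. Replicate 4 was set apart for Tnnc1, at 9.72. Replicate 3 was set apart for Maml1, at 9.23, and for Srebf2, at 9.51, and replicate 1 for Hspa1a, at 8.76.

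Control replicate 5 was also apart for Cbln2, at 7.29, against 7.60 to 7.72, for Lilrb4, at 7.13, against 7.36 to 7.45, for Itgam, at 8.22, against 8.02 to 8.04, and for the blood and platelet list, at −0.32, against −0.03 to 0.05. Other controls set apart were replicate 6 for Pik3c2g, at 7.71, and replicate 2 for Gria3, at 6.50, and for Psmb9, at 11.1.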

How the results depend on the processing

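The count of 9 probe sets (3 higher, 6 lower) depended on the setting. It was 8 with arrays centred on their medians, 10 with a trend and robust moderation, 7 and 10 with filters on present calls, and 5 above the median level (2 higher, 3 lower). With array weights it was 1374 (297 higher, 1077 lower). The fit to hormone and control arrays alone passed 1 (1 higher, 0 lower), which was none of the 9, with 5348 probe sets at an unadjusted p under 0.05, and an ordinary test without moderation passed 0 (4709 unadjusted). It passed 0 in limma with the lymph node level as covariate (2952 unadjusted), with both tissue levels (2959), without control replicates 1, 4 and 5 (2180), and without hormone replicate 4 and pregnancy replicates 7 and 9 (4812). With the replicate number as a block, 0 passed (7521 unadjusted). Same-numbered hormone and control arrays had correlations of deviations of 0.26, 0.02, −0.25 and 0.19. These values are too few to decide whether the numbers pair rats, which the labels do not state. With each array left out in turn the count lay between 0 and 1884, of which 0 to 545 were higher and 0 to 1339 lower. It was 1884 without control replicate 2, 33 without control replicate 6, 2 without hormone replicate 5, 1 without control replicate 1, pregnancy replicate 1 or 7, or hormone replicate 2 or 3, and 0 without control replicate 4 or 5 or hormone replicate 1 or 4. In the counts of 1884 and 33 all 9 were kept.

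Of 91 genes recomputed under each setting, 8 had passed, and none of these reversed. Their groups did not overlap, so leaving out arrays could not have changed their sign. Without the lymph node rich controls the medians of 11 of the 38 lists changed sign. Under the same change Tgfb3 was −0.19, Lbp −0.036, Ndufa5 −0.0029, Tnfsf11 0.084, Lef1 0.053, Fcer2 0.18, Cd79b 0.31 and Zap70 0.012. Tgfb3 was −0.11 with the lymph node covariate and −0.12 with both. Areg was 0.27 and Pgr 0.11 in the block fit, and Pgr 0.047 with array weights. With 1 array left out, Areg lay between −0.46 and 0.17, Pgr between −0.37 and 0.17, and Lbp between −0.12 and 0.25. The cause of these changes was not tested.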
